A study of Drosophila melanogaster with 8 samples.

Results

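The genes described are cyclins, cyclin-dependent kinases (Cdks) and mitotic drivers: CycA, CycB, CycB3, CycD, CycE, Cdk1, Cdk2, Cdk4, the phosphatase gene stg (string) and the kinase gene polo. They were found by symbol in the platform annotation. Of these 10 genes, 6 were paired with a probe set, 1 each (CycB, CycB3, CycD, CycE, Cdk2 and Cdk4), out of 11982 genes in all. CycA, Cdk1, stg and polo were paired with none in the annotation used here and were not analysed here. The samples were S2 cells, an embryo-derived fly line that resembles blood cells (hemocytes), and the question was what loss of dSTING does to the transcripts of cells that received DNA. Cells received non-specific dsRNA (control) or dsRNA against dSTING (dSTING RNAi). After 3 days they were transfected with a double-stranded DNA of 90 nucleotides (dsDNA) or mock transfected with lipofectamine alone, and they were lysed 24 hours later. All groups therefore carried a dsRNA and went through both transfection steps, and each of the 4 combinations of RNAi and treatment was measured on 2 arrays, 8 in all.

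The cell cycle is driven by Cdks, kinases that are active only when bound to a cyclin. CycD with Cdk4 promotes growth and G1 progression in the fly, CycE with Cdk2 drives entry into S phase, and CycA, CycB and CycB3 with Cdk1 drive mitosis. String, the fly Cdc25, removes the inhibitory phosphates from Cdk1, and Polo acts in centrosome maturation, spindle assembly and cytokinesis. Mitotic cyclins are destroyed by the anaphase-promoting complex (APC/C) in each cycle, so much of this control acts on protein and leaves no trace in an RNA measurement. S2 cells proliferate in culture. In a bulk culture a change in the share of cells in a phase and a change in RNA per cell cannot be told apart.

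Array values were linear intensities with a floor of 1, at which 19.6% to 24.1% of the values of an array lay, and array means were 21.7 to 22.5. A level here is the mean of log2(intensity + 1) over all arrays, and 4189 of 18769 tested probe sets lay above a level of 3, which corresponds to an intensity of 7. Of 12 measured hemocyte markers 6 lay above that level (srp, crq, NimC1, vkg, Col4a1 and ush). No marker of fat body (0 of 4), muscle (0 of 3), neurons (0 of 4), germline (0 of 4) or gut (0 of 2) lay above it, the highest single value being 6.78 for elav. The summed intensity of the 4 neuron markers was 7.37 to 8.46 in control and 8.49 to 10.1 in dSTING RNAi arrays. Most of this sum was elav, at 4.18 to 4.83 in control and 5.01 to 6.78 in dSTING RNAi arrays. Its mean knockdown difference was 0.34 (SE 0.11, unadjusted limma p 0.0233, adjusted p 0.993). The other 3 lay near the floor, with 0.09 for nSyb, 0.03 for para and -0.07 for brp. The part of the neuron markers in the knockdown differences was not tested. The sum of the hemocyte markers was 413 to 455 in control mock and 385 to 464 in control dsDNA arrays. It was 424 to 442 in dSTING RNAi mock arrays and lower, 376 to 420, in dSTING RNAi dsDNA arrays. Most of this sum was Col4a1 and vkg, with dsDNA differences of -0.16 and -0.18 in dSTING RNAi cells. Over the 12 hemocyte markers, 7 differences in that comparison were positive and 5 negative, with a median of 0.03. One of these markers, NimC1, a phagocytosis receptor gene, read 8.64 to 9.40 in the 4 dsDNA arrays and 11.1 to 12.9 in the 4 mock arrays, a mean dsDNA difference of -0.39 (SE 0.05, unadjusted limma p 0.000472, adjusted p 0.894). Over the 12 hemocyte markers, 6 mean dsDNA differences were positive and 6 negative, with a median of 0.0075. Among those above the level of 3, srp (0.17), crq (0.17) and ush (0.11) were higher with dsDNA. Like NimC1, vkg (-0.17) and Col4a1 (-0.11) were lower. The part of the hemocyte markers in the dsDNA differences was not tested. Sting, the target of the dsRNA, was 48.7 to 53.1 in the 4 control arrays and 3.45 to 8.05 in the 4 dSTING RNAi arrays, following the titles (the genotype tag of 4 samples follows the DNA treatment instead). Its mean knockdown difference was -2.99 on the log2 scale (SE 0.19), a ratio of control over dSTING RNAi of 8.82, with an unadjusted limma p of 1.29e-05 and an adjusted p of 0.121, so the target itself was not called. Array 2 of the control mock group and array 2 of the dSTING RNAi dsDNA group stood apart, at 12.2 and -12.5 on the main axis of variation among the brighter probe sets (52.1% of their variance). Whether the arrays of a group stem from different cultures is not stated, and the spread that p-values are based on may be technical.

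The range of intensity differed between the measured cyclin and Cdk genes. Over all 8 arrays the highest intensity exceeded the lowest 1.18-fold for CycB, 1.32-fold for CycD, 1.43-fold for CycE, 1.5-fold for Cdk4, 1.78-fold for Cdk2 and 1.84-fold for CycB3. For knockdown, the median absolute log2 difference of the 6 genes was 0.09 with dsDNA and 0.13 in mock cells. Among probe sets above the level of 3 it was 0.06 and 0.08. For dsDNA, that of the 6 genes was 0.11 in control and 0.14 in dSTING RNAi cells, beside 0.10 and 0.08 for those probe sets. The sets are unlike in level and spread, as CycE, CycB3 and Cdk2 lay under the level of 3. In each of these contrasts the median SE was 0.13 for the 6 genes and 0.11 for those probe sets. CycB, CycD and Cdk4 lay above the level of 3, whereas CycE lay just under it at 2.76 and CycB3 and Cdk2 lay near the floor at 1.67 and 1.37. No value of any of the 6 was at the floor itself. limma, fitted to log2(intensity + 1) over all probe sets, called 0 of the 6 in any of the 7 contrasts taken from it, and it called 0% of all probe sets in each of them.

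**Figure D1:**
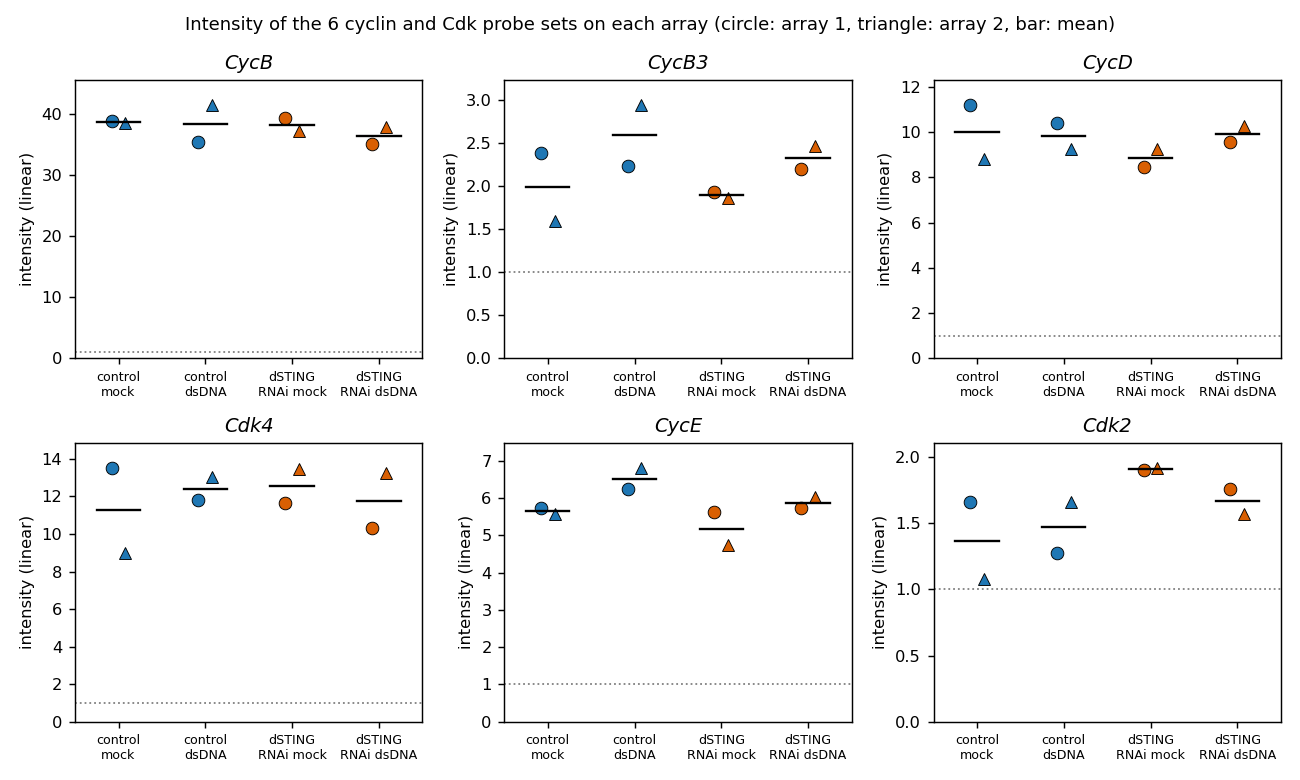
Intensity (linear scale, starting at 0) of the 6 measured genes on each of the 8 arrays (circle for array 1, triangle for array 2 of a group); blue points are control and orange points dSTING RNAi arrays, black bars are group means of 2 arrays, and the dotted line is the floor of 1. CycB lies between 35.0 and 41.4 on every array, and the control mock group shows a wide gap between its arrays for Cdk4, at 13.5 and 9.01.

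Among the mitotic cyclins, CycB, the B-type cyclin that binds Cdk1, gave the steadiest signal. Its intensity was 38.8 and 38.4 with mock and 35.3 and 41.4 with dsDNA in control cells, 39.2 and 37.1 in dSTING RNAi mock cells and 35.0 and 37.8 in dSTING RNAi dsDNA cells. The groups overlapped in each of the 4 comparisons, and the gap between the 2 control dsDNA arrays was wider than any difference between group means. The log2 difference with knockdown was -0.02 in mock cells (95% interval -0.23 to 0.19) and -0.07 with dsDNA (-0.28 to 0.14). The difference with dsDNA was -0.01 in control cells (-0.22 to 0.20) and -0.07 in dSTING RNAi cells (-0.28 to 0.14). The values for knockdown in mock and for dsDNA in control turned positive under quantile normalization and median centring.

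CycB3, a B-type cyclin that promotes anaphase in the fly embryo, was dim. It read 2.39 and 1.60 with mock and 2.24 and 2.94 with dsDNA in control cells, 1.94 and 1.86 in dSTING RNAi mock cells and 2.20 and 2.47 in dSTING RNAi dsDNA cells. The dsDNA arrays lay above the mock arrays in dSTING RNAi cells, and the groups overlapped in control cells. The difference with dsDNA averaged over both RNAi states was 0.23 (SE 0.11, 95% interval -0.04 to 0.51), with an unadjusted limma p of 0.0808 and an adjusted p of 0.894. Without the 2 arrays that stood apart, which leaves their groups with 1 array each, it was 0.11. The difference with knockdown averaged over both treatments was -0.07 (SE 0.11).

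The G1 pair CycD and Cdk4 lay above the level of 3, and no difference of either passed the test. CycD, the cyclin partner of Cdk4, read 11.2 and 8.79 with mock and 10.4 and 9.26 with dsDNA in control cells. In dSTING RNAi cells it read 8.47 and 9.26 with mock and 9.54 and 10.3 with dsDNA. The dsDNA arrays lay above the mock arrays in dSTING RNAi cells, and the 2 control mock values enclosed nearly the whole range of the gene. Its log2 difference with knockdown was -0.15 in mock cells (95% interval -0.45 to 0.15) and 0.01 with dsDNA (-0.29 to 0.32). Without control mock array 1 the first was 0.0092, and without control mock array 2, which stood apart, it was -0.31. The second turned negative under quantile normalization, under median centring and without the arrays that stood apart (-0.038).

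Cdk4, the kinase of that pair, read 13.5 and 9.01 with mock and 11.8 and 13.1 with dsDNA in control cells. In dSTING RNAi cells it read 11.6 and 13.5 with mock and 10.3 and 13.2 with dsDNA. Its lowest value and its highest value were thus both control mock arrays, and all groups overlapped. Its intervals were the widest of the 6 genes, with a log2 difference of 0.17 (-0.36 to 0.69) for knockdown in mock cells and -0.08 (-0.61 to 0.45) for knockdown with dsDNA. With 1 array left out these ran from -0.10 to 0.43 and from -0.25 to 0.087. Averaged over both treatments the knockdown difference was 0.04 (SE 0.15). With 1 array left out it ran from -0.09 to 0.18. Without the 2 arrays that stood apart, which leaves their groups with 1 array each, it was -0.17, so the sign of this small value was not stable.

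CycE and Cdk2 act together at the start of S phase. CycE, the cyclin, read 5.74 and 5.58 with mock and 6.23 and 6.80 with dsDNA in control cells, so the dsDNA arrays lay above the mock arrays. In dSTING RNAi cells it read 5.63 and 4.74 with mock and 5.72 and 6.03 with dsDNA, again with the dsDNA arrays above the mock arrays. Across both RNAi states the 4 dsDNA arrays (5.72 to 6.80) and the 4 mock arrays (4.74 to 5.74) overlapped by a small margin. CycE was the only one of the 6 genes with an unadjusted limma p under 0.05 in any contrast, and that in the mean dsDNA contrast alone.

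The mean dsDNA difference of CycE was 0.16 on the log2 scale (SE 0.06, 95% interval 0.02 to 0.31), a ratio of mean intensities of 1.14. Its unadjusted limma p was 0.0295 and its adjusted p 0.894, so it did not pass the threshold. An unadjusted p under 0.05 was reached by 5.38% of all probe sets in that contrast, by 2.53% on the higher side. The difference was 0.17 (SE 0.08) in control and 0.16 (SE 0.08) in dSTING RNAi cells, and the interaction was -0.02 (SE 0.11, adjusted p 1). With 1 array left out the mean dsDNA difference lay between 0.11 and 0.22, and without the 2 arrays that stood apart it was 0.14. The mean knockdown difference of CycE was -0.12 (SE 0.06, unadjusted limma p 0.0821, adjusted p 0.993), at a ratio of 0.908.

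Cdk2, the kinase that CycE activates, lay near the floor, where adding 1 compresses a difference. It read 1.66 and 1.08 with mock and 1.27 and 1.66 with dsDNA in control cells. In dSTING RNAi cells it read 1.90 and 1.91 with mock and 1.76 and 1.57 with dsDNA. The dSTING RNAi mock arrays lay above both control mock arrays, while with dsDNA the groups overlapped. The log2 difference with knockdown was 0.31 in mock cells (95% interval -0.04 to 0.65, unadjusted limma p 0.0698) and 0.11 with dsDNA (-0.23 to 0.46). On average it was 0.21 (SE 0.10). Without the 2 arrays that stood apart it was 0.15. The low control mock value was array 2, one of those arrays.

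**Figure D2:**
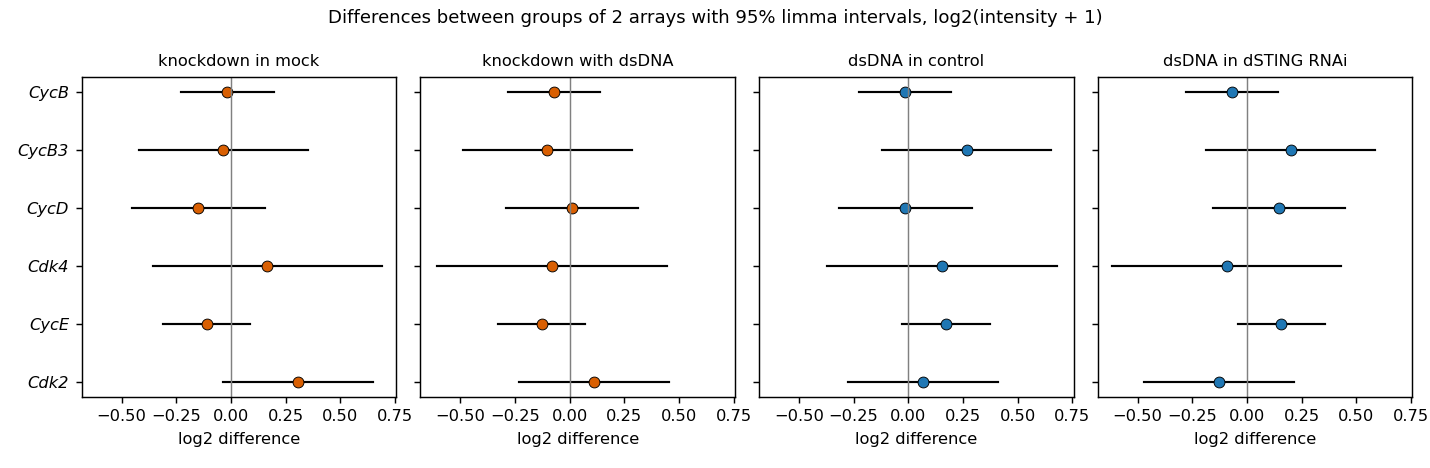
Log2 differences (x axis, log2(intensity + 1) scale) of the 6 genes in the 4 comparisons of 2 arrays against 2, with 95% intervals from limma. Every interval crosses 0, and the widest belong to Cdk4, for example -0.61 to 0.45 for knockdown with dsDNA.

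The order of the groups differed between genes. CycE and CycB3 had the same order of means: control dsDNA, dSTING RNAi dsDNA, control mock, dSTING RNAi mock. Of the 3 neighbouring pairs in that order only 1 did not overlap for CycE (control dsDNA above dSTING RNAi dsDNA) and 0 for CycB3. For Cdk2 the order was dSTING RNAi mock, dSTING RNAi dsDNA, control dsDNA, control mock, with only the first pair apart. For CycB, CycD and Cdk4 no neighbours were apart. Of all probe sets, 24.1% did not overlap between the groups of the CycE pair and 26.4% between those of the Cdk2 pair. The highest group mean exceeded the lowest 1.06-fold for CycB, 1.12-fold for Cdk4, 1.13-fold for CycD, 1.26-fold for CycE, 1.36-fold for CycB3 and 1.40-fold for Cdk2.

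Counted over the 6 genes, knockdown with dsDNA, the comparison named in the design text, left 2 values positive and 4 negative. Their median was -0.08 against 0.00 over all probe sets, and their range was -0.13 to 0.11. This median turned to 0.015 without control dsDNA array 2 and to 0.021 without dSTING RNAi dsDNA array 1, and it was -0.16 without control dsDNA array 1 and -0.14 without dSTING RNAi dsDNA array 2. Knockdown in mock cells gave a median of -0.03 with values from -0.15 to 0.31. That median was 0.083 without control mock array 1, 0.0074 without dSTING RNAi mock array 2, -0.11 without control mock array 2 and -0.054 without dSTING RNAi mock array 1. In each of these comparisons 1 of 6 genes had groups that did not overlap (CycE lower with dsDNA, Cdk2 higher in mock). Of all probe sets 24.1% did not overlap with dsDNA (11.9% lower) and 28.9% in mock (13.3% higher). Both comparisons had 0 of 6 with an unadjusted p under 0.05, against 4.51% and 4.72% of all probe sets.

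The dsDNA comparisons gave a median of 0.11 in control cells and 0.04 in dSTING RNAi cells. The control median turned to -0.066 without control mock array 2, was 0.22 without control mock array 1 and 0.20 without control dsDNA array 1, and was 0.028 with log2(intensity + 16). The median in dSTING RNAi cells was 0.13 without dSTING RNAi dsDNA array 1 and 0.011 without array 2 of that group. In control cells 1 of 6 genes had groups that did not overlap (CycE higher), against 29.2% of all probe sets (13.7% higher), and 0 of 6 had an unadjusted p under 0.05, against 5.25%. In dSTING RNAi cells 4 of 6 did not overlap (CycB3, CycD and CycE higher, Cdk2 lower), against 26.4% of all probe sets (13.2% higher and 13.3% lower). None of these 4 had an unadjusted limma p under 0.05 in that contrast, where 4.37% of all probe sets did, and the smallest was 0.1 for CycE. This comparison includes dSTING RNAi dsDNA array 2, which stood apart. Without both outlying arrays the 4 differences were 0.14 for CycB3, 0.10 for CycD, 0.12 for CycE and -0.07 for Cdk2. The dsDNA comparisons share both their mock and their dsDNA arrays with the knockdown comparisons, so the values of a gene in them are not independent. For the interaction, the difference between the 2 dsDNA effects, the values ran from -0.25 (Cdk4, SE 0.29) to 0.16 (CycD, SE 0.17), with 0 of 6 at an unadjusted p under 0.05 against 4.19% of all probe sets. For the mean contrasts, with 4 arrays on each side, 0 of 6 had groups that did not overlap, against 2.31% of all probe sets for knockdown and 2.45% for dsDNA.

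For Cdk4, CycB3, Cdk2 and CycD the widest gap between the 2 arrays of a group was in the control mock group. For CycB it was in the control dsDNA group and for CycE in the dSTING RNAi mock group. All 6 genes were higher on array 1 than on array 2 of the control mock group, by 0.53 on the log2 scale for Cdk4, 0.38 for CycB3, 0.36 for Cdk2, 0.32 for CycD, 0.03 for CycE and 0.02 for CycB. Among all probe sets above the level of 3, 57.8% were higher on that array, with a median difference of 0.04. In control dsDNA cells 5 of 6 genes were higher on array 2 (59.9% of the brighter probe sets), in dSTING RNAi dsDNA cells 5 of 6 (53.3%), and in dSTING RNAi mock cells 3 of 6 (57.9%). Values without the outlying arrays are given beside several differences. The part of those arrays in a difference, and what sets them apart, were not tested.

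**Figure D3:**
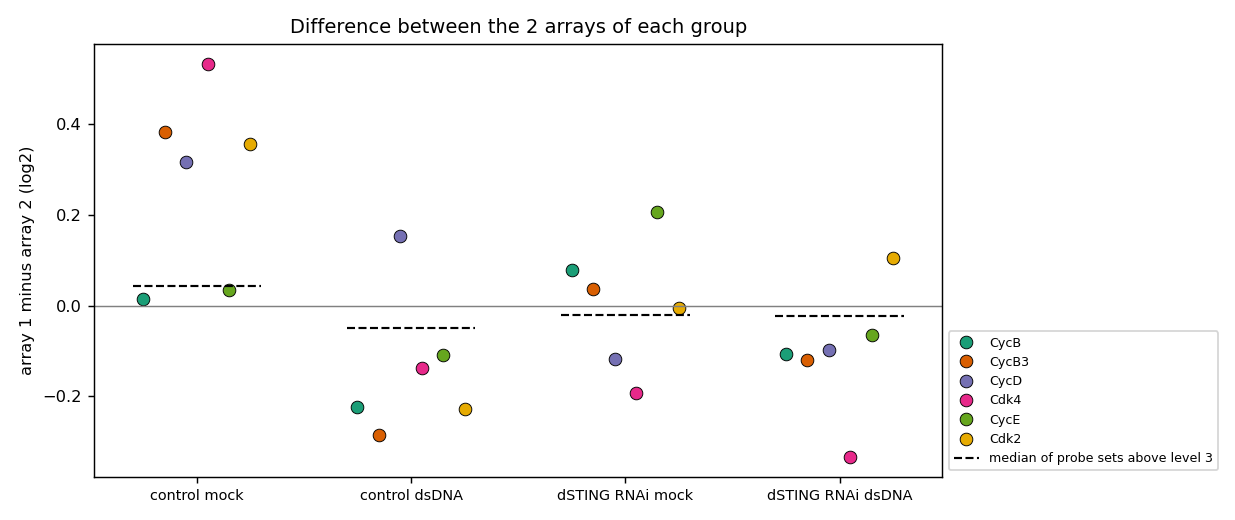
Difference between array 1 and array 2 of each group (y axis, log2) for the 6 genes (points), with the median of all probe sets above a level of 3 as a dashed line. In the control mock group all 6 points lie above 0, up to 0.53 for Cdk4.

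Other genes of the cell cycle machinery were taken from 6 lists, of which 79 of 95 genes were measured and 41 lay above the level of 3. limma called 0 of the 79 in any contrast. At an unadjusted p under 0.05 there were 2 higher and 1 lower for mean knockdown, where 4.76% of all probe sets had such a p, and 2 higher and 1 lower for mean dsDNA, where 5.38% did. The median difference over the 79 was 0.00 for mean knockdown and -0.01 for mean dsDNA, beside 0.00 over all probe sets in both.

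Among 12 other cyclins and Cdks the median was 0.03 for mean knockdown and 0.01 for mean dsDNA. CycT, the cyclin of the transcription elongation kinase P-TEFb, had a mean dsDNA difference of 0.20 (SE 0.07, unadjusted limma p 0.0434, adjusted p 0.894). CycY, which binds the Cdk encoded by Eip63E, had 0.14 (SE 0.05, unadjusted limma p 0.0473). Cdk8 of the Mediator kinase module had 0.10 (SE 0.06). With knockdown the smallest p-values in this list belonged to Cdk9, the kinase of P-TEFb, at -0.06 (SE 0.04), Cdk7, the Cdk-activating kinase, at -0.16 (SE 0.11), and Cdk8 at 0.08 (SE 0.06).

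Among 10 measured Cdk regulators, Mat1, the assembly factor of the Cdk7 complex, read 22.6 to 24.7 in the 4 control arrays and 20.0 to 22.5 in the 4 dSTING RNAi arrays. These groups did not overlap, and the difference was -0.14 (SE 0.05, unadjusted limma p 0.0407, adjusted p 0.993), a ratio of 0.901. The germline Cdc25 gene twe lay at the floor on 2 arrays and had 0.10 (SE 0.04), and Cks30A, a small Cdk-binding protein, had -0.21 (SE 0.10). With dsDNA the other Cks gene, Cks85A, had -0.15 (SE 0.06, unadjusted limma p 0.0423), while twe and fzr, the APC/C activator of G1, had 0.06 each (SE 0.04 and 0.06).

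In the list of mitotic kinases, checkpoint and cohesion, thr, which encodes a partner of separase, had the smallest p of the 79 for mean knockdown. It read 2.02 to 2.26 in the 4 control arrays and 2.44 to 2.59 in the 4 dSTING RNAi arrays, and the groups did not overlap. The difference was 0.16 (SE 0.03, unadjusted limma p 0.0042, adjusted p 0.800) at a dim level of 1.72. It and Mat1 were the 2 of 79 genes (2.53%) whose 4 dSTING RNAi and 4 control arrays did not overlap, close to the 2.31% of all probe sets. Mps1, a spindle checkpoint kinase, had 0.13 (SE 0.06), and borr, the Borealin subunit of the chromosomal passenger complex, -0.14 (SE 0.08). With dsDNA the passenger kinase aurB had -0.25 (SE 0.11), borr -0.15 (SE 0.08) and Map205, a microtubule protein that binds Polo, 0.12 (SE 0.07).

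In the remaining lists 0 genes had an unadjusted p under 0.05 in either mean contrast. Of 15 APC/C and SCF genes, the mean knockdown values were 0.09 for ida (SE 0.05), -0.16 for fzy (SE 0.11), the mitotic activator of the APC/C, and 0.19 for Cdc16 (SE 0.15). The dsDNA values were -0.09 for Cdc27 (SE 0.05), 0.16 for shtd (SE 0.10) and 0.14 for the cullin gene Cul1 (SE 0.10). Of 8 measured E2F, Rb and Myb-MuvB genes, which hold transcription factors of the G1/S step, Dp had -0.10 with knockdown (SE 0.06), Rbf2 -0.03 (SE 0.03) and mip40 -0.11 (SE 0.11). With dsDNA E2f2 had 0.09 (SE 0.05), lin-52 -0.15 (SE 0.12) and mip130 -0.14 (SE 0.11). Of 13 spindle and cytokinesis genes, Ran had -0.07 with knockdown (SE 0.04), the anillin gene scra -0.09 (SE 0.06) and the kinesin gene Klp61F -0.13 (SE 0.09). With dsDNA the kinesin gene Klp67A had 0.09 (SE 0.05), scra -0.11 (SE 0.06) and the centriole gene asl -0.05 (SE 0.03).

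**Figure D4:**
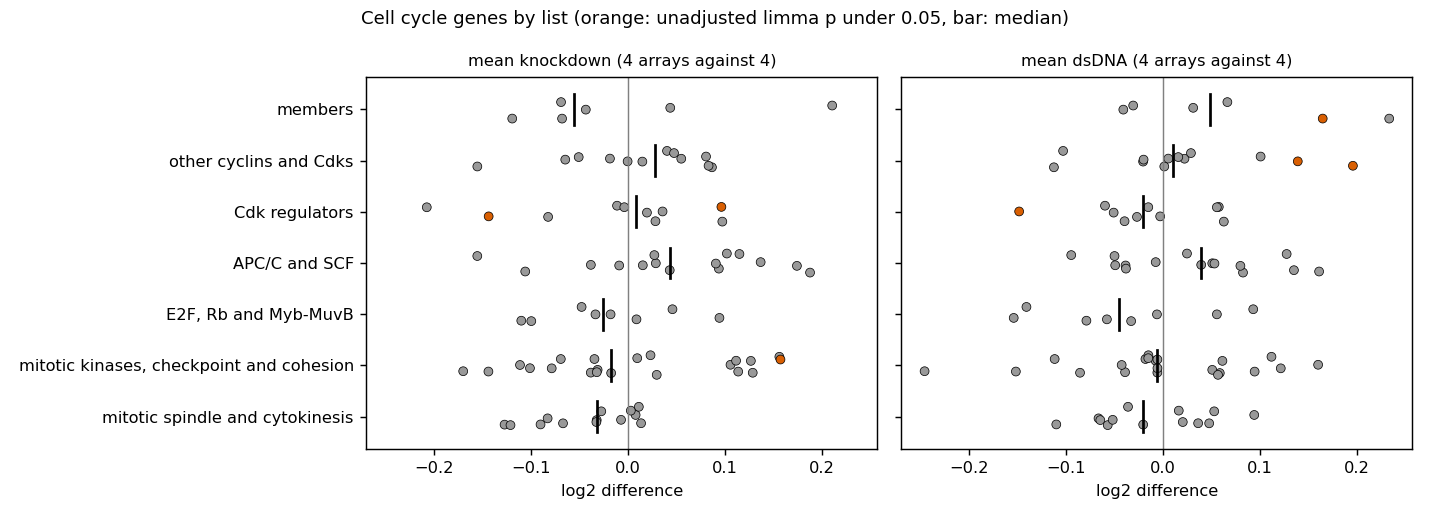
Mean knockdown and mean dsDNA differences (x axis, log2) of the 6 genes (top row, labelled members) and of the 79 genes of 6 further lists, 1 point per gene with the list median as a bar; orange points have an unadjusted limma p under 0.05. All points lie between -0.25 and 0.23, and the 3 orange points of each panel outside the top row stand beside many grey ones.

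The profile of CycB over the 8 arrays was set against those of 3576 other probe sets with 1 gene and a level above 3, as a description of likeness. The highest Pearson r were 0.976 for CG6293, 0.965 for mtd and 0.949 for Rpn5, with Spearman's rho of 0.952, 0.952 and 0.81. These are the top of many comparisons over 8 arrays that share a normalization, and CycB itself varied little, so no test was attached. CG6293 read 202 and 268 on the 2 control dsDNA arrays, the pair on which CycB also differed most.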

How the data were processed

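Total RNA of 8 S2 cell samples was labelled with biotin by an Affymetrix 3' in vitro transcription kit, per the labels' protocols. The deposited table holds 1 linear intensity per probe set and array, as made by the authors. No source used here names the software, background correction or normalization. The number of arrays limits the precision.

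Of 18952 probe sets, 183 AFFX controls were left out and 18769 tested. Platform annotation, updated through gene identifiers, gave 13647 probe sets 1 gene, 402 several and 4720 no name. For a gene with several probe sets the brightest was used. One limma model (version 3.58.1, R 4.3.3) with 4 group means was fitted to log2(intensity + 1) of all 8 arrays, and 7 contrasts were taken. Tests were two-sided, with Benjamini-Hochberg adjustment over all probe sets and a threshold of 0.05. The fit was tested on simulated data. SEs and 95% intervals are limma's. Log2 differences understate changes of dim probe sets.

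The members and lists were chosen with earlier results of these data known. Named were all members, Sting, the 3 genes of each other list with the smallest p in both mean contrasts, and the 3 genes most like CycB. The rule also asked for genes most like stg, which has no probe set here. Alternatives were other normalizations, filters, priors, subsets of arrays and a replicate block. The replicate numbers are not said to mark a shared culture or day. Correlations between same-numbered deviations of 2 groups ran from -0.737 to 0.384, so the numbers were not taken as pairs.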

Additional observations from a re-analysis of the deposited data

How the results depend on the processing

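limma called none of the 6 genes in those of the 19 alternatives that tested them, and their smallest adjusted p was 0.506. The filter on a level above 3 tested only CycB, CycD and Cdk4, and the fit of only the arrays compared gave no interaction or mean contrast. Over all probe sets, where the reported count was 0, the count became 3 for knockdown with dsDNA, 3 for knockdown in mock and 4 for mean knockdown with probe sets above a level of 3, and 3, 3 and 4 with those above the median level, where fewer were tested. Median centring gave 2 for knockdown in mock and 3 for mean knockdown, log2(intensity + 16) gave 1 and a trended robust prior 3 for mean knockdown. All of these calls were on the lower side. The cause was not tested.

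Quantile normalization and median centring turned the sign of small values. The value of CycD became -0.039 and -0.013 for knockdown with dsDNA, and that of CycB 0.011 and 0.0016 for knockdown in mock. For dsDNA in control CycB became 0.019 and 0.0054 and CycD 0.030 and 0.0053. With log2(intensity + 16) the median of the 6 genes for dsDNA in control was 0.028.

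Leaving out control mock array 2 and dSTING RNAi dsDNA array 2, chosen after seeing the data, gave medians of the 6 genes of -0.11 for knockdown in mock, -0.066 for dsDNA in control, -0.16 for mean knockdown and -0.054 for mean dsDNA. Signs turned for CycD (-0.038) in knockdown with dsDNA, Cdk4 (-0.10) in knockdown in mock, Cdk2 (-0.11) and Cdk4 (-0.11) in dsDNA in control, CycB3 (0.065) and Cdk2 (0.037) in the interaction, and Cdk4 (-0.17) in mean knockdown. In mean dsDNA they turned for CycD (-0.037), Cdk4 (-0.19), fzr (-0.0077) and Cul1 (-0.023).

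Leaving out 1 array at a time, a group of 1 array being assumed to vary like the others, called 0 of the 6 genes. The lowest and highest log2 differences follow, the case without both arrays included, for values that turned their sign or moved. For knockdown with dsDNA they ran from -0.00063 to 0.23 for Cdk2, -0.25 to 0.087 for Cdk4, -0.18 to 0.042 for CycB, -0.24 to 0.041 for CycB3, -0.066 to 0.088 for CycD and -0.16 to 0.021 for the median. For knockdown in mock they ran from -0.10 to 0.43 for Cdk4, -0.055 to 0.022 for CycB, -0.23 to 0.16 for CycB3, -0.31 to 0.0092 for CycD and -0.11 to 0.083 for the median. For dsDNA in control they ran from -0.11 to 0.24 for Cdk2, -0.11 to 0.42 for Cdk4, -0.13 to 0.099 for CycB, -0.17 to 0.14 for CycD and -0.066 to 0.22 for the median. For dsDNA in dSTING RNAi they ran from -0.26 to 0.075 for Cdk4 and 0.011 to 0.13 for the median. For the interaction they ran from -0.37 to 0.037 for Cdk2, -0.51 to 0.020 for Cdk4, -0.17 to 0.058 for CycB, -0.26 to 0.12 for CycB3, -0.12 to 0.087 for CycE and -0.19 to 0.048 for the median. For mean knockdown they ran from -0.17 to 0.18 for Cdk4, -0.10 to 0.013 for CycB, -0.19 to 0.028 for CycB3, -0.17 to 0.010 for CycD and -0.16 to 0.019 for the median. For mean dsDNA they ran from -0.12 to 0.058 for Cdk2, -0.19 to 0.16 for Cdk4, -0.023 to 0.23 for Cul1, -0.097 to 0.015 for CycB, -0.037 to 0.15 for CycD, -0.0077 to 0.11 for fzr and -0.054 to 0.16 for the median.

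Each group holds 1 array of each replicate number, so a replicate block could not move an estimate and could only change the spread. With it limma called 0 of the 6 genes, with a smallest adjusted p of 0.913. With 2 arrays per group, differences as large as the ends of the printed intervals are not excluded. CycB3 and Cdk2 lie near the floor, where their fold changes are compressed.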
